A study of Danio rerio with 4 samples.

Results

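The 150 genes described here gave the brightest array signal in zebrafish testis among genes with a proper symbol, once 14 symbol families of abundant products (ribosomal proteins, respiratory chain, proteasome, tubulins, heat shock proteins, actins and others) were left out. They were chosen by their measured values. For each probe the log2 processed signal was taken relative to the 75th percentile of its array and averaged over the 4 arrays, each gene was represented by its brightest probe, and the 150 highest of 11941 eligible genes were kept. Their levels are therefore a description, not a finding, and carry no test. A level of 0 means a signal equal to that percentile, and each unit is a 2-fold step. Probes differ in how well they bind and label, so the order of the genes is an order of signal and not of RNA amount.

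The RNA came from testes of 4-month-old zebrafish kept for 6 weeks in water with 20 µg/L MCLR (microcystin-LR, a cyanobacterial toxin known to block serine/threonine protein phosphatases) or in water with 0 µg/L (control), with 2 arrays per group and no other agent or allele in the labels. Total RNA was amplified, labelled with Cy3 and measured on 1-colour Agilent arrays that shared 1 slide. MCLR samples lay at positions 1 and 2 and controls at positions 3 and 4, so slide position and treatment cannot be told apart. The labels do not say whether the arrays of a group came from separate fish or pools, so p-values measure only the spread between these arrays, which may be technical.

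The testis is built of germ cells, which pass through spermatogonia, meiotic spermatocytes and flagellated spermatids, and of somatic cells: Sertoli cells that nurse them, steroid-producing Leydig cells, and muscle-like, blood and vessel cells. Meiotic cells assemble the synaptonemal complex between paired chromosomes, Piwi proteins silence transposons in the germ line, and spermatids build a flagellum from microtubule doublets and dynein arms. Growing germ cells also use much general machinery for translation, mRNA packaging and chromatin.

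Each array held 43803 zebrafish spots, of which 81.9% to 88.2% were marked as well above background. None was saturated: the brightest raw signal reached 21.3% to 29.1% of the scanner's limit. On all arrays, 22 of 23 tested genes of the germ line list and 16 of 16 of the meiosis list stood well above background. So did 46 of 46 of the spermatid list and 20 of 20 of the Sertoli list. A gene was tested only if a probe already passed this mark on both arrays of a group, so the filter nearly set these counts. The oocyte list (15 of 15) and the skeletal muscle list (19 of 19) gave as much, so the counts do not identify the tissue. The summed signal of the pancreas list and of the neuron and glia list differed between arrays, and its source was not tested. The summed linear level of 20 pancreas genes was 346 times the 75th percentile on control 2, against 15.8 on control 1 and 15.3 and 19.3 on the MCLR arrays. That of 15 neuron and glia genes was 84.9 on control 1, against 18.7 on control 2 and 20.7 and 13.6 on the MCLR arrays. None of the 150 genes was on either list. RNA from whole testis cannot tell fewer cells of a type from less RNA per cell.

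The levels ran from 8.29 for rab25b to 4.98 for cnot2, with a median of 5.65, while the median of all 24319 genes tested was -1.53. In processed signal the 150 genes spanned 2833 to 119246, and all of them stood well above background on all 4 arrays. The margin was thin at the lower end: selenop at 4.99 and cnot2 at 4.98 were the last inside, and seta at 4.98 and ube2c at 4.98 were the nearest outside. In all, 398 genes on the array were at least as bright as cnot2. Besides the 150, these were 109 without a symbol, 27 with provisional or clone names and 112 of the families left out, of which 44 were large-subunit and 30 small-subunit ribosomal protein genes.

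Leaving out those families did not leave a set free of housekeeping genes. By textbook role, 104 of the 150 genes serve general cell functions, 17 belong to germ cells or the flagellum, 8 to somatic cells, 7 are known mainly from other tissues, and 14 could not be assigned. The largest classes were translation (18 genes), RNA binding (17), germ cell and flagellum (17), chromatin (12), signalling (12), and ubiquitin and folding (11).

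**Figure D1:**
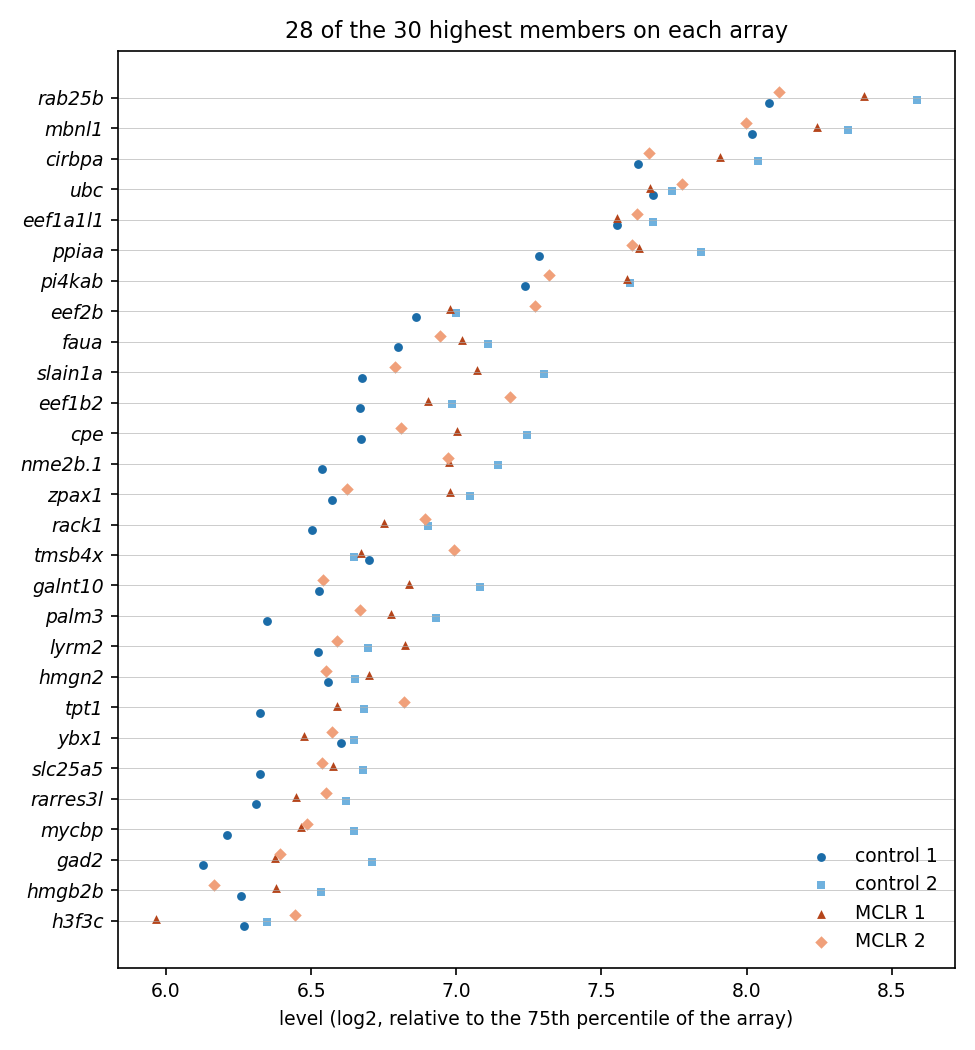
Level of 28 of the 30 brightest genes on each of the 4 arrays (x axis, log2 relative to the 75th percentile of the array), with circles and squares for controls and triangles and diamonds for MCLR. The 2 groups interleave in nearly every row, and control 1 is often the lowest array, as for ppiaa at 7.29 and tpt1 at 6.33.

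At the bright end, rab25b, a small GTPase of recycling endosomes, measured 8.08 and 8.59 in controls and 8.40 and 8.11 with MCLR. mbnl1, a muscleblind splicing regulator, measured 8.02 and 8.35 in controls and 8.24 and 8.0 with MCLR. ubc, a polyubiquitin gene, measured 7.68 and 7.74 in controls and 7.67 and 7.78 with MCLR. In all of them the groups overlapped. Control 2 was the highest array for rab25b and mbnl1, and ubc was nearly the same on all arrays.

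No difference between MCLR and control passed the test. Of the 24319 genes, 0.0% were called in either direction by limma at an adjusted p under 0.05, so 0 of the 150 genes passed; their smallest adjusted p from limma was 0.758. At an unadjusted p under 0.05, 9.19% of all genes were called (8.66% higher and 0.53% lower in MCLR), against 0 of the 150 genes and 0 of the 248 other genes of at least the same brightness. The bright genes stood below that share, but the share includes dim genes that passed the background filter in either group alone, and no member was such a gene. Among the 22369 genes well above background on all 4 arrays it was 5.75%, with 0 of the 150 called. At least 2-fold calls in that setting were 369 higher and 39 lower. At least 2-fold differences at an unadjusted p under 0.05 made up 5.37% (higher) and 0.243% (lower) of all genes, and 0 of the 150 in each direction.

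The differences themselves were small. The median log2 fold change of the 150 genes was 0.01, with 79 above 0 and 71 below and quartiles at -0.07 and 0.10. Over all genes the median was 0.08 and the quartiles were -0.10 and 0.34. The absolute log2 fold change had a median of 0.08 among the 150, 0.09 among the 248 genes of like brightness and 0.21 over all genes. It was under 0.2 for 128 of the 150 (85.3%), against 82.7% of the 248 and 48.8% of all genes. The 95% interval of the fold change lay within 2-fold in either direction for 126 of the 150 (84.0%), against 91.9% of the 248 genes of like brightness and 55.9% of all genes.

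**Figure D2:**
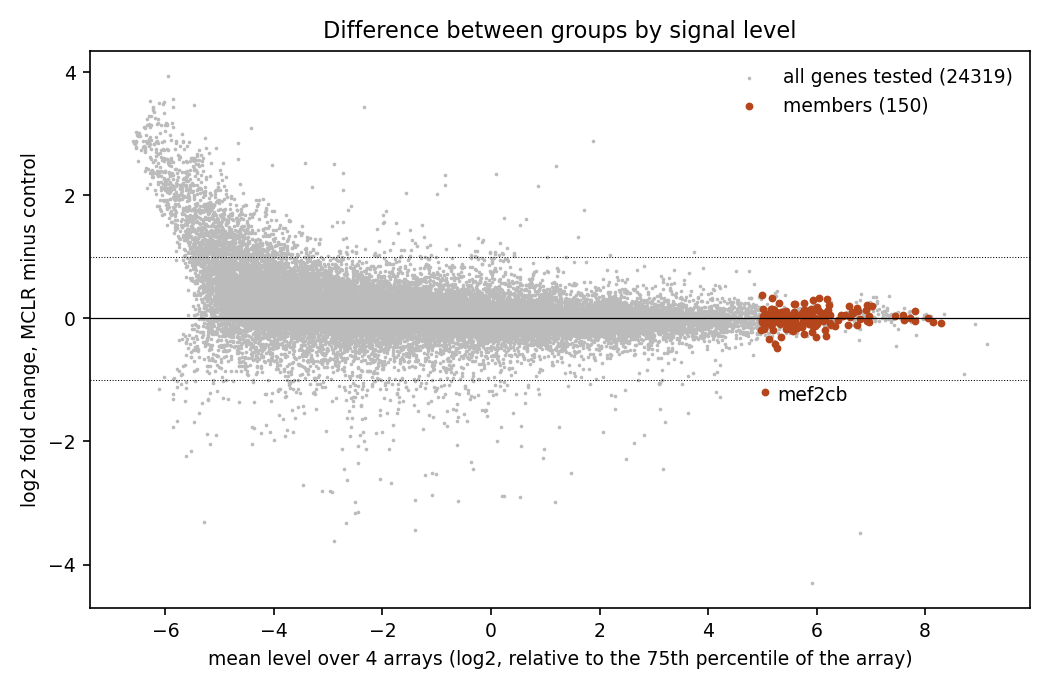
Log2 fold change, MCLR minus control (y axis), against mean level over the 4 arrays (x axis, log2 relative to the 75th percentile) for all 24319 genes tested (grey) and the 150 genes (red), with thin lines at 2-fold. The red points lie at the bright end and close to 0, apart from mef2cb at -1.20.

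Both MCLR arrays lay above both controls for 25.3% of all genes but for 1 of the 150 (0.667%), fth1a, and below both controls for 9.08% of all genes and 15 of the 150. The former share was also low, at 6.45%, among the 248 genes of like brightness, and the latter was near its background. fth1a, the iron-storing ferritin heavy chain, measured 5.48 and 5.48 in controls and 5.53 and 5.89 with MCLR. The difference of 0.23 ± 0.25 (log2, SE, 2 arrays per group) came mostly from MCLR 2 and did not pass limma's test (unadjusted p = 0.406).

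Elongation and ribosome-bound factors led the translation class. eef1a1l1, the factor that brings aminoacyl-tRNA to the ribosome, measured 7.55 and 7.68 in controls and 7.55 and 7.62 with MCLR, a difference of -0.03 ± 0.23. eef2b, which drives ribosome translocation, measured 6.86 and 7.0 in controls and 6.98 and 7.27 with MCLR, a difference of 0.19 ± 0.25. The exchange factor gene eef1b2 differed by 0.22 ± 0.26, the ribosome scaffold gene rack1 by 0.12 ± 0.26 and tpt1, the translationally controlled tumour protein, by 0.20 ± 0.26. In all of these the groups overlapped. The poly(A)-binding protein genes pabpc1b and pabpc1a were members. pabpc1b measured 5.50 and 5.51 in controls and 5.17 and 5.22 with MCLR, without overlap (-0.31 ± 0.23, unadjusted p = 0.235 in limma). Its next probe, at 5.34, measured 5.07 and 5.75 in controls and 5.23 and 5.30 with MCLR. By that probe the groups overlapped and the difference was -0.15. pabpc1a measured 5.23 and 5.06 in controls and 5.40 and 5.15 with MCLR (0.13 ± 0.25). mrpl20, of the mitochondrial ribosome, differed by 0.31 ± 0.29. The 18 genes had a median difference of 0.06, which turned to -0.04 with median scaling. On the translation list of 47 tested genes, 14 of them members, 0 were called higher and 0 lower at an unadjusted p under 0.05, with a median of 0.00.

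RNA-binding genes leaned the other way by a small amount: 15 of 17 had a negative difference, with a median of -0.09. The count was 14 to 16 under the other scalings, 13 with probes averaged, 16 without control 1, 13 without MCLR 1 and 11 without MCLR 2. Without control 2 it was 8, with a median of 0.08. On the wider RNA binding list, 42 of 59 tested genes were below 0, with a median of -0.07, and 0 were called in either direction at an unadjusted p under 0.05. The lean was not particular to that list: 33 of 47 chromatin, 24 of 33 cell cycle and 24 of 34 cytoskeleton genes were below 0. Other lists did not share it, such as translation (24 of 47) and immune cell (2 of 19). cirbpa, a cold-inducible RNA-binding protein, measured 7.63 and 8.04 in controls and 7.91 and 7.66 with MCLR. ybx1, a Y-box protein that packages mRNA, measured 6.60 and 6.65 in controls and 6.47 and 6.57 with MCLR, a difference of -0.10 ± 0.23. khdrbs1a, the Sam68 protein, measured 5.86 and 5.94 in controls and 5.55 and 5.74 with MCLR, a difference of -0.26 ± 0.24 with an unadjusted p of 0.326 in limma. The groups did not overlap for ybx1 and khdrbs1a, nor for rbm8a of the exon junction complex at -0.20 ± 0.24. They overlapped for cirbpa at -0.05 ± 0.27.

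Among chromatin genes, hmgn2, a nucleosome-binding protein, was steady at 6.56 and 6.65 in controls and 6.70 and 6.55 with MCLR. h2ax1, the histone variant marked at DNA breaks, measured 6.10 and 6.21 in controls and 5.67 and 6.02 with MCLR. Its groups did not overlap, and the difference was -0.31 ± 0.25 (unadjusted p = 0.277 in limma). hmgb2b, a high-mobility-group box protein, differed by -0.12 ± 0.25, and h3f3c, a replacement histone, by -0.10 ± 0.27. setb, a histone chaperone that also inhibits a phosphatase of the class MCLR blocks, measured 4.80 and 5.38 in controls and 5.19 and 5.28 with MCLR, a difference of 0.14 ± 0.29. The 12 members had a median of 0.01, which was -0.01 under quantile normalization and -0.09 with median scaling. The chromatin list of 47 genes had a median of -0.15, and 1 gene, dek (a DNA-binding chromatin protein, not a member), passed an unadjusted p under 0.05, with a difference of -0.88 ± 0.25.

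Of the 17 germ cell and flagellum genes, 4 stand for the germ line or meiosis by the marker lists. sycp1 encodes the transverse filament of the synaptonemal complex and measured 6.26 and 6.38 in controls and 6.06 and 6.01 with MCLR. Both MCLR arrays were below both controls, and the difference was -0.29 ± 0.23 (unadjusted p = 0.271 in limma). Its next probe, at 5.29, differed by -0.12. hormad1, of the meiotic chromosome axis, measured 5.70 and 5.95 in controls and 5.93 and 6.01 with MCLR (0.15 ± 0.24). piwil1, which binds piRNAs, measured 5.50 and 5.72 in controls and 5.64 and 5.52 with MCLR (-0.03 ± 0.24). The groups overlapped for both. hsf5, a heat shock factor needed for zebrafish spermatogenesis, differed by -0.07 ± 0.25.

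Genes of cilia and the sperm tail made up most of the remainder. tekt1, a tektin filament protein, measured 5.89 and 5.94 in controls and 5.89 and 6.21 with MCLR. Its difference was 0.14 ± 0.25, with overlapping groups. cimap1b, a sperm-tail microtubule protein formerly named odf3b, measured 5.30 and 5.23 in controls and 5.22 and 5.34 with MCLR. Smaller differences were seen for mycbp (0.05 ± 0.26), which is known from cilia and sperm, for the dynein arm assembly factor daw1 (0.03 ± 0.25), for the tubulin polyglutamylase subunit tpgs1 (0.00 ± 0.24) and for spata4 (-0.08 ± 0.34). Further members of the class, named after their values were seen, were gtsf1, hoatz, wbp2nl, zte38 and ift57, none beyond 0.10 in size, and spag1b, described below. The 17 genes had a median of 0.03 with 12 above 0, which turned to -0.06 with 4 above 0 when arrays were scaled to their median. On the full lists, 0 of 46 spermatid genes and 0 of 16 meiosis genes were called at an unadjusted p under 0.05, and 2 of 23 germ line genes (against 8.66% of all genes) were called higher. These were the stem cell factor gene pou5f3, at 0.99 ± 0.28, and ca15b, which was not well above background on either control and is given no fold.

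Somatic genes were few. gsdf, a growth factor of fish Sertoli cells measured by 1 probe, gave 5.56 and 6.21 in controls and 6.27 and 6.16 with MCLR. Control 1 was the low array, the groups overlapped, and the difference was 0.33 ± 0.30 (unadjusted p = 0.318 in limma). nr5a1b, a steroidogenic factor gene of Sertoli and Leydig cells, measured 5.16 and 5.69 in controls and 5.66 and 5.24 with MCLR (0.03 ± 0.31). Its next probe lay at 0.39, over 4 units lower. Of the 8 somatic genes, 4 had such a gap and 2 had 1 probe. In 1 the next probe lay within 2 units, and 1 was in between. Of the 18 genes of the Leydig list, 13 were found on the array, and none of these was bright enough to be a member. Of 20 tested Sertoli genes, 1 (wt1a) was called higher at an unadjusted p under 0.05, against 8.66% of all genes, and 0 lower. b2m, the light chain of MHC class I, measured 5.24 and 5.68 in controls and 5.53 and 5.87 with MCLR (0.23 ± 0.28), and 3 of 19 genes of the immune list, none of them a member, were called higher, against the same 8.66% of all genes.

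The 4 calcium-binding genes had the lowest class median among classes of 4 or more, -0.22. calm1a, a calmodulin gene, measured 5.69 and 5.32 in controls and 5.0 and 5.05 with MCLR. Its groups did not overlap, and its unadjusted p of 0.115 in limma was the smallest of the 150 genes, at a difference of -0.48 ± 0.26 and a 95% interval from -1.12 to 0.16; its adjusted p was 0.758. Its other probe, at 4.87, differed by -0.43, whereas the next probe of calm2b, at 4.28, differed by 0.12, and its further probes were also on the positive side of 0. calm3b measured 5.43 and 5.17 in controls and 5.06 and 4.85 with MCLR (-0.34 ± 0.25), and calm2b 5.98 and 5.95 in controls and 5.91 and 5.81 with MCLR (-0.11 ± 0.23), both without overlap. Of the calmodulin genes outside the 150, calm2a differed by -0.25 ± 0.23, calm1b by -0.60 ± 0.35 and calm3a by -0.14 ± 0.27, so all 6 were on the same side of 0, as they were under each scaling tried, and 0 of them passed an unadjusted p under 0.05. With a gene's probes averaged, 5 of the 6 were below 0 and calm2b was at 0.03. Without control 1, 5 of the 6 were below 0 with a median of -0.19, and without control 2 the lowest, calm1b, was at -1.03. Near-identical coding sequences can share probes' signal, which the files do not settle. All of them except calm2a were highest on control 1, the array on which the summed neuron and glia level was 84.9 against at most 20.7 elsewhere; 14 of the 15 tested genes of that list stood well above background on all arrays, and its part in these values was not tested.

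In energy metabolism, the glycolytic aldolase gene aldocb measured 5.86 and 5.01 in controls and 4.85 and 5.19 with MCLR. It too was highest on control 1, with the others close together. Its next probe was also highest there, at 3.24, against 1.84 on control 2 and 1.86 and 1.87 with MCLR. The summed neuron and glia level was highest on that array as well, and its part in these values was not tested. By its brightest probe, aldocb differed by -0.42 ± 0.36 (unadjusted p = 0.292 in limma). Without control 2 the difference was -0.84, with an unadjusted p of 0.0478 that takes the spread of the lone control from the MCLR arrays; in that setting 14.1% of all genes had an unadjusted p under 0.05. slc25a5, the mitochondrial ADP/ATP carrier, measured 6.32 and 6.68 in controls and 6.58 and 6.54 with MCLR (0.05 ± 0.25), and nme2b.1, a nucleoside diphosphate kinase, differed by 0.13 ± 0.29. On the glycolysis and energy list, 0 of 45 genes were called at an unadjusted p under 0.05.

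The 4 redox and iron genes had the highest class median, 0.24. With an array left out it ran from 0.03 without MCLR 2 to 0.44 without MCLR 1, and it was 0.06 without control 1. selenop, the secreted selenium carrier, measured 4.50 and 5.10 in controls and 5.10 and 5.27 with MCLR, the largest positive difference of the 150 genes at 0.38 ± 0.30 (unadjusted p = 0.249 in limma), with control 1 low and the other arrays close together. fthl27, ferritin-like, differed by 0.24 ± 0.30 and sod1, the cytosolic superoxide dismutase, by -0.01 ± 0.24. Of 30 genes on the redox and iron list, 0 were called at an unadjusted p under 0.05, with a median of -0.03. The related genes nkd3l and nkd3, of the naked cuticle family that tempers Wnt signalling, differed by 0.29 ± 0.27 and 0.25 ± 0.26.

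**Figure D3:**
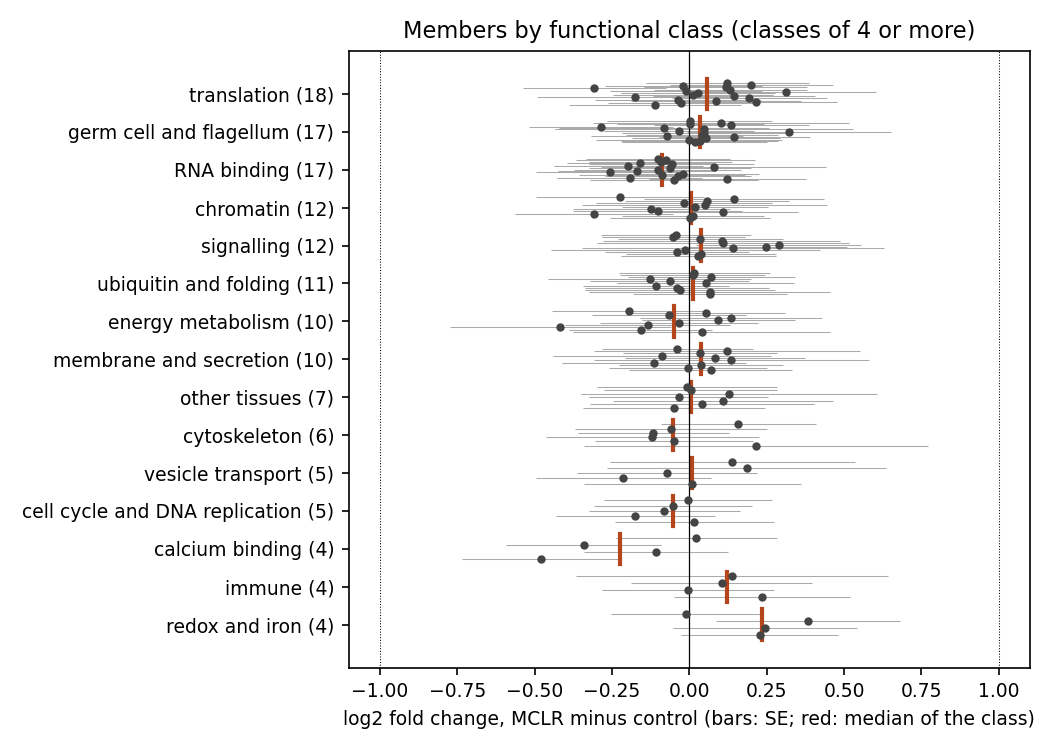
Log2 fold change, MCLR minus control (x axis), of each gene (point, with its SE as a bar) by functional class for classes of 4 or more genes, with the class median in red and dotted lines at 2-fold. Medians lie between -0.22 for calcium binding and 0.24 for redox and iron, and every point lies within 0.5 of 0; mef2cb, in a smaller class, is not drawn.

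The exception in size was mef2cb, a transcription factor of heart and muscle that was counted among the 8 somatic genes. It measured 5.62 and 5.68 in controls, 6.06 on MCLR 1 and 2.83 on MCLR 2. The groups overlapped, and 1 array, MCLR 2, carried the difference of -1.20 ± 1.00 (unadjusted p = 0.276 in limma). It rested on 1 probe, whose spot had no outlier mark. Without MCLR 1 the difference was -2.82 (unadjusted p = 0.0007, with the lone array assumed to vary like the controls), and without MCLR 2 the direction turned, to 0.41 (unadjusted p = 0.262). At least 2-fold differences without a test made up 7.41% of all genes and 1 of the 150, this gene.

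Whether other probes of the same gene were as bright divided the 150 genes. Of these, 127 had more than 1 probe. In 52 the next-brightest probe lay within 2 log2 units (4-fold) of the brightest, in 22 it lay 2 to 4 units lower, and in 53 it lay over 4 units (16-fold) lower; these limits were set after the values were seen. The share with a gap over 4 units was 41.7% of the members with more than 1 probe, against 17.3% of the 7086 eligible genes with more than 1 probe and 4 of 55 bright ribosomal protein genes. The rule keeps the brightest probe, so it favours genes with such gaps. For the 53 genes the gap was at least 4.04 units, with no upper end given since dim probes only bound it, and 23 of their 96 other probes were not well above background on all arrays, against 1 of 158 in the 52 genes whose probes agreed.

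**Figure D4:**
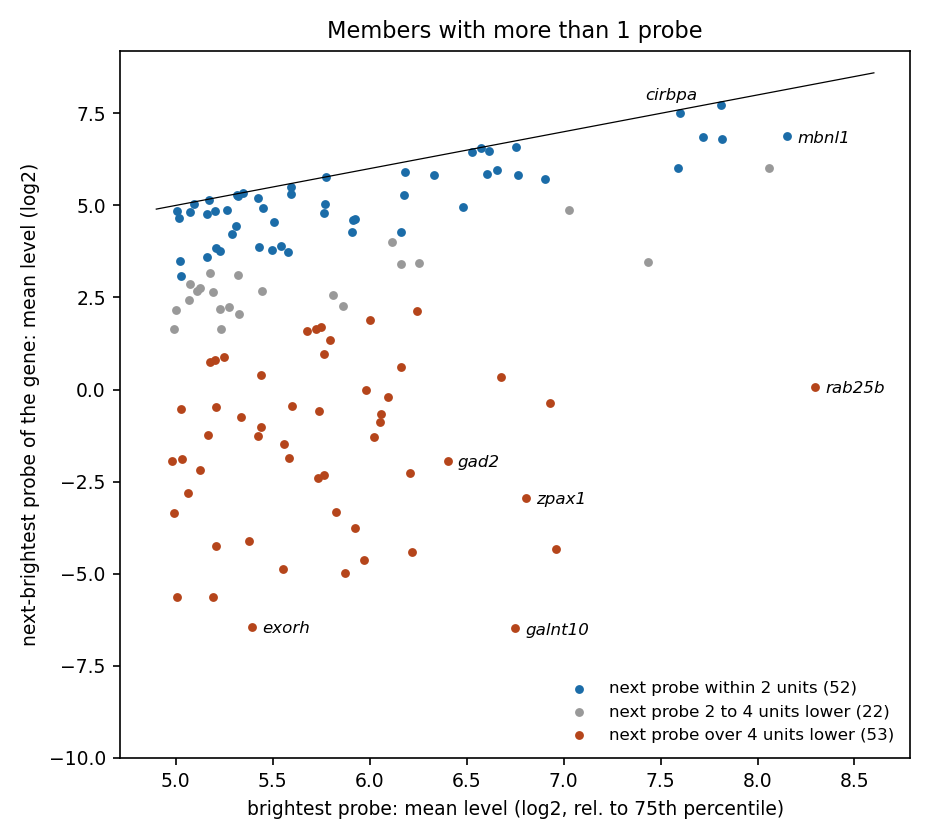
Mean level of the next-brightest probe (y axis) against that of the brightest probe (x axis) for the 127 genes with more than 1 probe, both in log2 relative to the 75th percentile, with the line of equality. The 52 genes in blue lie within 2 units of the line and the 53 in red more than 4 units below it, with rab25b at 0.07 and zpax1 at -2.95 on the y axis. Probes near the bottom were not all above background, so their height is only a bound.

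The brightest of the 150 genes was in the latter group. rab25b had 2 other probes, 1 at 0.07 against 8.29 for the brightest and 1 not well above background on all arrays. galnt10, which starts mucin-type O-glycans, had its other probe not well above background on all arrays. In contrast, cirbpa at 7.81 had another probe at 7.74, and sycp1 and piwil1 had theirs at 5.29 and 5.31. The places of rab25b and galnt10 among the 150 rest on 1 probe each.

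All 7 genes known mainly from other tissues lacked a second probe within 2 units. In 6 of them the gap was over 4 units, and in ddc, which makes dopamine and serotonin, it was 2.55. Such gaps were not particular to these genes: all 5 vesicle transport genes and 7 of the 10 membrane and secretion genes had a gap over 4 units. zpax1, an egg envelope glycoprotein gene, measured 6.57 and 7.05 in controls and 6.98 and 6.62 with MCLR, with its other probe at -2.95. mybpc2b of fast muscle and the liver plasma protein gene serpind1 had their next probes at -1.28 and -3.75, and that of exorh, the opsin of the fish pineal gland, was not well above background on all arrays. Of the 17 germ cell genes, 5 had a second probe within 2 units, 3 were in between and 5 had 1 probe. The other 4 (spag1b, tpgs1, daw1 and wbp2nl) had a gap over 4 units. Over all members with more than 1 probe, 40.9% had a second probe within 2 units and 41.7% had a gap over 4 units.

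For the neuronal genes gad2 and cpe, the probes of a gene also differed in which arrays were high. gad2, which makes GABA, measured 6.13 and 6.71 in controls and 6.38 and 6.39 with MCLR by its brightest probe. The next of its 7 other probes measured 1.05 and -3.74 in controls and -0.92 and -4.15 with MCLR. The brightest probe was thus lowest on control 1 while the next was highest there, as was the neuron and glia list. cpe, the peptide hormone carboxypeptidase, measured 6.67 and 7.24 in controls and 7.0 and 6.81 with MCLR by its brightest probe, and 2.70 and -2.07 in controls and 0.11 and -2.15 with MCLR by the next. Here too control 1 was lowest by the one probe and highest by the other. The 3 other probes of cpe that passed the background filter differed by -1.34, -0.30 and -0.47, against -0.05 ± 0.29 for the brightest.

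The genes whose probes disagreed also shared an array profile that the selection did not use. In 35 of the 53, control 1 and MCLR 2 were the lower pair and control 2 and MCLR 1 the higher pair, against 15 of 52 genes with agreeing probes, 6 of 22 in between, 5 of 23 with 1 probe, and 18.7% of all genes. The profile was also common among the 248 other genes of like brightness, at 117. Control 2 exceeded control 1 by a median of 0.58 in the 53 genes and 0.22 in the 52, and MCLR 1 exceeded MCLR 2 by 0.28 and by -0.08. The profile crosses the groups. The log2 fold change was under 0.2 in size for 51 of the 53 genes, against 41 of the 52 and 82.7% of the 248. The median range over the arrays was 0.59 against 0.37.

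**Figure D5:**
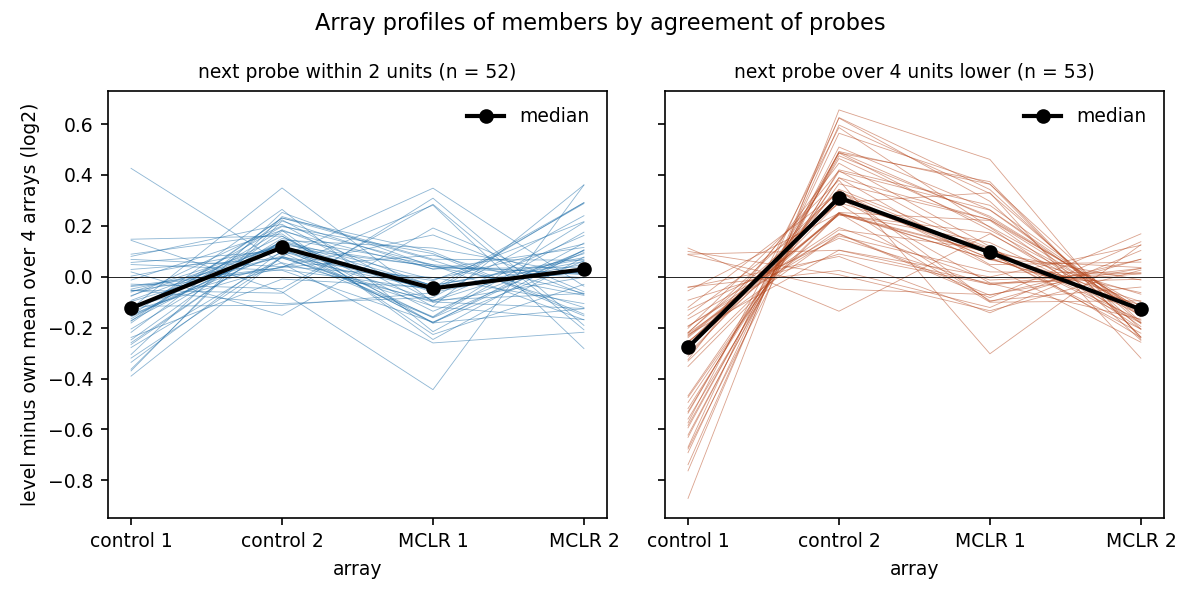
Level of each gene on each array minus its own mean over the 4 arrays (y axis, log2), for the 52 genes whose next probe lay within 2 units (left) and the 53 whose next probe lay over 4 units lower (right), with the median in black. The right panel dips at control 1 (median -0.28), peaks at control 2 (0.31) and falls to -0.13 at MCLR 2, while the medians of the left panel lie between -0.12 and 0.12.

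The scaling percentiles followed the same pairs of arrays, at 393.3 on control 1 and 397.8 on MCLR 2 against 310.3 on control 2 and 301.0 on MCLR 1. Under quantile normalization the profile was still found in 32 of the 53 genes but in 3 of the 52, and in the authors' deposited value table in 31 and 2. With normexp background correction the counts were 31 and 5, and with median scaling 27 and 7. Under median scaling MCLR 1 exceeded MCLR 2 by a median of only 0.08 in the 53 genes. The relation of the profile to labelling, hybridization or RNA quality was not tested. baiap2l1b, which bends membranes, showed it most: 5.35 and 6.88 in controls and 6.68 and 5.98 with MCLR, a range of 1.53. spag1b, needed for dynein arm assembly, measured 5.58 and 6.87 in controls and 6.54 and 6.00 with MCLR, and tbk1, a kinase that activates interferon genes, 4.45 and 5.83 in controls and 5.55 and 5.0 with MCLR. Their differences of 0.22 ± 0.56, 0.05 ± 0.48 and 0.14 ± 0.50 had wide errors, and in all of them the groups overlapped. Of the 15 genes with a range over 1 unit, 12 were in the group of 53; the others were mef2cb, acot9.2 and aldocb.

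Gene length and neighbours were also compared, since probes can pick up overlapping transcripts. In the annotation of assembly GRCz12tu, 52 of the 150 genes (34.7%) overlapped another gene, against 38% of eligible genes. Overlap was found in 17 of the 53 genes with disagreeing probes and 14 of the 52 with agreeing ones. Of the genes of other tissues named above, serpind1 overlapped another member, and mybpc2b and gad2 overlapped other genes. No overlap was listed for zpax1, exorh, ddc and cpe. Whether the probes took up signal of overlapping genes was not tested. The median genomic length was 10.1 kb for the 150, 16.6 kb for the 53, 7.64 kb for the 52 and 15.8 kb for eligible genes.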

How the data were processed

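Per the file headers, spots were quantified in Agilent Feature Extraction 11.0.1.1; the deposited processed signal is an intensity on a linear scale, corrected for background within the array and not scaled between arrays. The deposited value table holds log2 values whose tool is not given in the sources used here; its scale follows the scanner values (correlation 0.992 to 0.995 per array, medians all near 5.91), gene centring was not seen, and it served as an alternative only.

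Levels were log2 processed signal minus the log2 75th percentile over non-control spots; 71 of 43603 probes with outlier marks were left out. Transcript identifiers gave symbols for 25978 probes (59.6%) and 13373 genes, of which 12389 had proper names. A probe entered if both arrays of either group marked it as well above background, and a gene was its brightest kept probe (24319 genes).

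The MCLR and control arrays were compared in R 4.3.3 with limma 3.58.1 (group only, eBayes, two-sided, Benjamini-Hochberg over all genes). With 2 residual and 3.52 prior degrees of freedom, a gene of median standard error 0.28 needed a log2 difference of 0.69 for an unadjusted p of 0.05. The number of arrays limits the precision. The fit was tested on simulated data. Python 3.11.15, numpy 2.4.6, pandas 2.3.3 and matplotlib 3.10.9 were also used.

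The members, the 26 gene lists, the roles and the tests were chosen with earlier results of these data known, and no list is independent support. Genes were named by rule: the 30 brightest, the 10 smallest p per direction among members, up to 6 brightest per list and class, the 10 widest ranges, ranks 146 to 155, and family members of those with the smallest p. Roles are textbook knowledge. The labels do not state whether the replicate numbers mark a shared animal or batch, so they were not used as pairs in the main fit. The correlation of same-numbered arrays' deviations was 0.188, which does not settle this. Alternatives were other scalings, background corrections, filters, probe rules and priors, the replicate block, and each array left out. Gene overlaps and genomic lengths were taken from the annotation of assembly GRCz12tu, which is not the build of the array, so no coordinates are printed; sequences were not used here. Some genes that the naming rule takes up are not reported here.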

Additional observations from a re-analysis of the deposited data

How the results depend on the processing

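No member passed limma's adjusted threshold under any alternative run, and under quantile normalization, normexp, median scaling, the deposited table, both probe filters and the other prior, 0 members had an unadjusted p under 0.05. When probes were averaged per gene, 3 members were higher at an unadjusted p under 0.05 in limma, rab25b by 0.72 and neurl1aa by 0.84, both with a turned direction, and pawr by 0.90. All had their next probe over 4 units lower. The averages took in dim probes, at -5.82 for rab25b, -4.98 and -5.15 for neurl1aa, and -4.10 and -5.34 for pawr. By their brightest probes the genes differed by -0.07, -0.04 and 0.11, so the averaged folds lean on signal near the floor. Leaving out each array in turn gave 0 to 1 members lower at that p and 0 to 1 lower by at least 2-fold, namely aldocb without control 2 (-0.84) and mef2cb without MCLR 1 (-2.82), with the lone array assumed to vary like the other group, and the members' median ran from -0.17 to 0.18. Under the other scalings and with probes averaged, 12 to 39 uncalled members changed sign, and with an array left out 38 to 58. In the other settings the median lay between -0.09 (median scaling) and 0.05. With the replicate number as a block, 0 members were called and the median was 0.01; over all genes 2176 were higher and 232 lower at an unadjusted p under 0.05, against 2107 and 129 without it.

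Membership kept 144 to 150 genes under the other scalings and with an array left out, but 55 with probes averaged, 57 with the second-brightest probe (an alternative added after seeing the data) and 67 when no families were left out. Among all genes, 2-fold calls at an unadjusted p under 0.05 were 1306 higher and 59 lower (95.7% higher), but 491 and 205 (70.5%) with quantile normalization, 11 and 14 (44.0%) with normexp, 349 and 177 (66.3%) with the deposited table, and 1880 and 700 (72.9%) without control 2; the cause was not tested. Adjusted calls over all genes were 213 with median scaling and 2 with the trended and robust prior, against 0 in the main fit. Some were also made with either control left out, where a lone array stands for its group.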
